A study of Mus musculus with 59 samples.

Results

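The sites described here are CTCF peaks that were present late in reprogramming and in embryonic stem cells (ESCs) but absent from the starting fibroblasts. They were selected on 4 peak lists by a rule that asks for an overlap of at least 1 bp. A site had to be a peak of day 12 Oct4-GFP+ cells with control shRNA and overlap a peak of wild-type ESCs, and it had to overlap no peak of day 0 cells or Thy1+ cells with control shRNA. Of 53043 day 12 control peaks, 9149 met the rule, which is 17.2%. Presence in these 4 lists is therefore fixed by the choice and is no result. The other 12 lists, 11 for CTCF and 1 for SMARCA5, were not used to choose the sites.

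The study mapped CTCF by ChIP-seq in mouse embryonic fibroblasts (MEFs) being turned into induced pluripotent stem cells by Oct4, Sox2, Klf4 and Myc (OSKM), and in ESCs of the E14Tg2a line. MEFs came from OG2 mice, whose Oct4-GFP reporter lights up when the Oct4 gene is active. For the sorted cells, OSKM was expressed from a doxycycline-inducible lentivirus, with an shRNA against luciferase (the control) or against Ctcf delivered by virus. These cells were taken on day 0 (unsorted), as Thy1+ cells on days 3 and 9, as SSEA1- Thy1- cells on days 6 and 9, as SSEA1+ cells on days 6 and 9, and as Oct4-GFP+ cells on day 12. Thy1 marks fibroblasts, and SSEA1 is a surface sugar that appears as cells move towards pluripotency. A separate experiment used retroviral OSKM on day 10, alone, with added Ctcf, or with added Ctcf and an shRNA against Smarca5. ESCs were wild type or Smarca5 knockout. SMARCA5 was mapped in ESCs as an overexpressed Flag-biotin-tagged protein in picked clones, so its list may not match the sites of the endogenous protein. ESCs were grown with leukemia inhibitory factor and inhibitors of MEK and GSK3. Each group is represented by 1 deposited list, made from 1 to 3 samples, so no spread between replicates could be computed, no test was run, and the Wilson 95% intervals below cover counting error alone. Titles and descriptions of the day 3 Thy1+ samples disagree on which received the Ctcf shRNA, and the titles were followed. This touches 1 of the 4 lists of the rule, and values without that list are given in the closing section.

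CTCF is a zinc-finger protein that binds a long DNA motif and halts the cohesin ring as it extrudes chromatin, which anchors loops and insulates neighbouring genes from each other's enhancers. Many CTCF sites are occupied in nearly every cell type, and others are cell-type specific. SMARCA5 (SNF2H) is the ATPase of ISWI remodellers, which slide nucleosomes and form the regular nucleosome arrays around CTCF sites.

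For a few of the gained sites that lie near a gene start, the sequence is shown here from the RefSeq promoter windows of GRCm38.p6 (250 bases before to 50 after each annotated start). Listed first are the bases before a start that a gained site covers at 3 genes of the gene lists described further on. Pou5f1 encodes Oct4 itself, Stat3 encodes the transcription factor downstream of leukemia inhibitory factor, and Krt8 encodes a keratin of simple epithelium. Rundc3b and the predicted gene Gm39417 are added because theirs were the 2 windows that lay wholly inside a gained site and held the letters CAGGGGGC; they were chosen after this was seen. Capitals mark CAGNNGGC, a short core of the CTCF motif that includes CAGGGGGC, searched on both strands. Each sequence runs 5′ to 3′ on the gene's strand.
Pou5f1, chr17:35508557-35508667, plus strand: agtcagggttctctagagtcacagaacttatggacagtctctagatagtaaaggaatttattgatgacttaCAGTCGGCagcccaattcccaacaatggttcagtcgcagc
Stat3, chr11:100939594-100939790, minus strand: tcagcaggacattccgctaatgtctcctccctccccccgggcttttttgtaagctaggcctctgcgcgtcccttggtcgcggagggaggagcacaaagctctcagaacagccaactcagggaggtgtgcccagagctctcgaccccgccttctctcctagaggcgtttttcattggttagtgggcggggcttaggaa
Krt8, chr15:102004343-102004592, minus strand: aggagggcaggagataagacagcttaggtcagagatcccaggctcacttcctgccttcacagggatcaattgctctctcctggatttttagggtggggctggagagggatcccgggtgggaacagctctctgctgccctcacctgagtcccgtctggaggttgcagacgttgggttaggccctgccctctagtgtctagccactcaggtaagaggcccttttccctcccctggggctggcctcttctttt
Rundc3b, chr5:8622953-8623202, minus strand: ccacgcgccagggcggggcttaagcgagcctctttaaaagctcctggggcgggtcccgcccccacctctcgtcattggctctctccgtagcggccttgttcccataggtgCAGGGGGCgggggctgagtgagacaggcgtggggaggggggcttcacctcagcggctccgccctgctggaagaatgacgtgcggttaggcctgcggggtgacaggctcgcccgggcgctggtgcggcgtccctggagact
Gm39417, chr11:105449528-105449777, plus strand: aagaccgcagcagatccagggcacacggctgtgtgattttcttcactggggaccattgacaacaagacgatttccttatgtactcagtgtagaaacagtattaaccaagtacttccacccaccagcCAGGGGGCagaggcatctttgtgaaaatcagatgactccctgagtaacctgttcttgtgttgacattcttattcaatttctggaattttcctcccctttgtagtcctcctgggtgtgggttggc

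The stretches printed for Pou5f1, Rundc3b and Gm39417 each held 1 match, and those for Stat3 and Krt8 held none in these letters. At Pou5f1 the site lies inside the gene, with its centre 339 bp upstream of an internal annotated start. That site was listed in the day 12 control and day 12 Ctcf shRNA cells, in day 10 cells with OSKM, Ctcf and Smarca5 shRNA, in both ESC genotypes and in the SMARCA5 list, and in no sorted intermediate. The Stat3 site was listed in both day 12 lists, both ESC genotypes and the SMARCA5 list. The Krt8 site was listed in SSEA1- Thy1- control cells but not in SSEA1+ control cells. It was in all 3 day 10 lists, in both ESC genotypes and in the SMARCA5 list. It was missing from every list with Ctcf shRNA, that of day 12 included. A site that covers the first bases after a start of Smarca4, the BRG1 ATPase, was listed in the day 12 control cells, in both ESC genotypes and with SMARCA5. These 4 sites, which overlap a promoter window of a listed gene, each carried a SMARCA5 peak. Of all 424 gained sites within 1 kb of a start, 67.5% carried one. Gained sites a little farther from a start, 0.512 kb upstream at Utf1 and 0.652 kb upstream at Olig2, did not. Sites 1.04 kb downstream at Nr0b1 and 1.16 kb downstream at Zfp42 did, while those 1.184 kb downstream at Elf5 and 1.645 kb downstream at Nanog did not.

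Across all promoter windows of which a gained site covered at least 200 bases, 158 windows of 149 genes, CAGNNGGC was found in 33.5% (95% interval 26.7 to 41.2). It was found in 49.0% of the 1479 windows covered by the other day 12 control peaks shared with ESCs, and in 25.9% of all 32851 windows. The stricter CAGGGGGC was in 3.80% of windows at gained sites, in 14.7% at the other shared peaks, and in 2.87% of all windows. Windows at gained sites had a median GC content of 59.0%, against 61.3% at the other shared peaks and 52.7% in all windows. Within windows of 60% GC or more, CAGNNGGC was in 37.0% of 73 windows at gained sites (26.8 to 48.5), 54.6% at the other shared peaks (51.2 to 57.9) and 38.7% of all windows. From 50% to 60% GC the shares were 34.5% (23.4 to 47.7), 43.6% and 28.8%, and below 50% GC they were 23.3% (11.8 to 40.9), 34.3% and 13.9%. The share at gained sites was the lower of the peak classes in each band, but below 60% GC its interval includes the value of the other shared peaks. A window can hold the motif in other letters, and most gained sites lie outside any window.

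Peaks of the day 12 control list that were also ESC peaks but had been present earlier serve for comparison. They number 40618. Of these, 26241 were in both the day 0 and the Thy1+ list, 14141 were in the Thy1+ but not the day 0 list, and 236 were in the day 0 but not the Thy1+ list. The rule's absence from 2 lists selects sites found in few lists. Among peaks shared with ESCs, the 14141 sites shared from Thy1+ on, absent from 1 of these lists, are therefore the closer comparison. Another 1850 day 12 control peaks were absent from both lists and from wild-type ESCs. SSEA1- Thy1- control, SSEA1+ control and day 10 OSKM cells held 23.1%, 27.9% and 4.22% of them, against 36.4%, 44.7% and 19.7% of gained sites. Day 12 cells with Ctcf shRNA held 38.1% of them, against 31.3% of gained sites. The day 0 control list is short, with 28838 peaks, while the control lists of Thy1+, SSEA1- Thy1- and SSEA1+ cells hold 52800, 50890 and 51978.

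In the control cells, gained sites were partly present in the sorted intermediates. SSEA1- Thy1- cells had 3332 of the 9149 sites (36.4%, 95% interval 35.4 to 37.4), and SSEA1+ cells had 4089 (44.7%, 43.7 to 45.7). Sites shared from Thy1+ on were present at 85.0% and 85.6%. In the separate day 10 cells with OSKM alone, 1803 gained sites were listed (19.7%), against 59.4% of sites shared from Thy1+ on and 96.1% of sites shared from day 0 on. Over the 11 CTCF lists not used by the rule, a gained site was in a median of 3, a site shared from Thy1+ on in 8, and a site shared from day 0 on in 11.

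**Figure D1:**
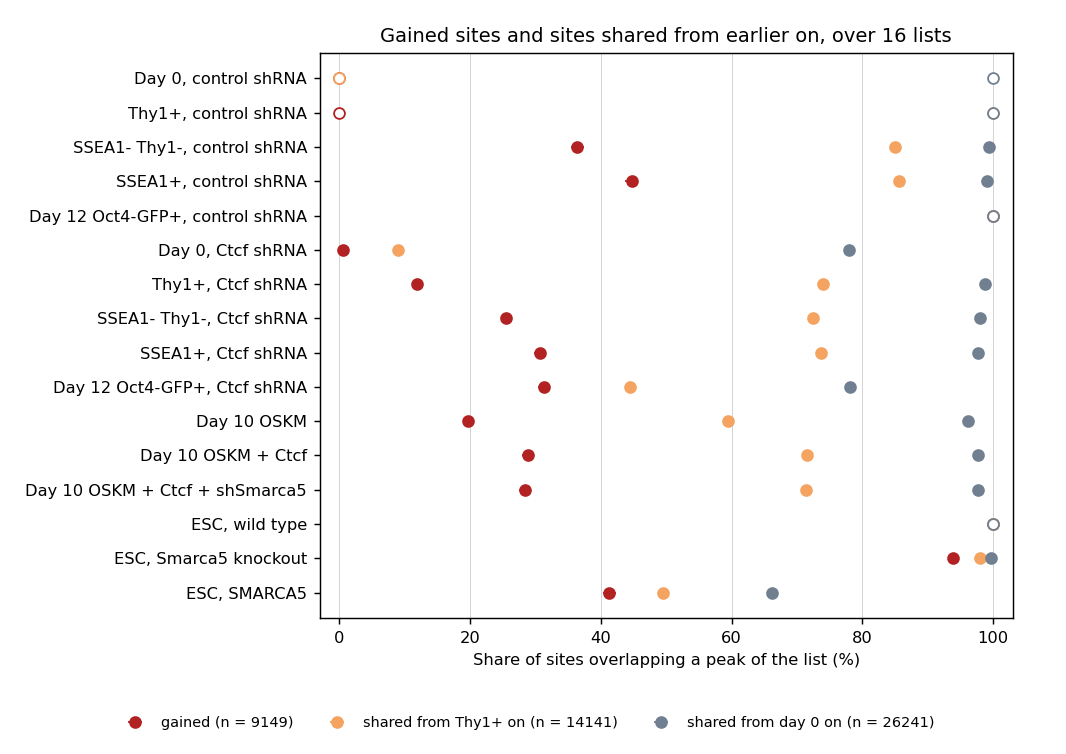
Share of sites (x axis, percent) that overlap a peak in each of the 16 lists (y axis), for the 9149 gained sites (red), the 14141 sites shared from Thy1+ on (orange) and the 26241 shared from day 0 on (grey). Open symbols are fixed by the way the sites were chosen, coinciding symbols hide each other, bars are Wilson 95% intervals and mostly smaller than the symbols. Gained sites are at the left in each of the 12 lists that the rule did not use, and come closest to the others in the Smarca5 knockout ESCs.

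The sites fell into 4 sets by their presence in the 2 sorted intermediates of the control cells. Both intermediates held 2645 sites, 1444 were in SSEA1+ but not SSEA1- Thy1- cells, 687 were in SSEA1- Thy1- but not SSEA1+ cells, and 4373 (47.8%) were in neither. Adding the day 10 OSKM list, 901 sites were in all 3 of these lists and 3869 (42.3%) were in none. A further step counted sites that no list of reprogramming cells held except those of day 12, with either shRNA. There were 3030 such sites, 33.1% of all gained sites. Sites of both intermediates were listed in day 10 OSKM cells at 34.1% (32.3 to 35.9) and sites of neither at 11.5% (10.6 to 12.5). The order was the other way round for SMARCA5. Its ESC list held 39.6% (37.7 to 41.5) of sites of both intermediates and 43.8% (42.3 to 45.2) of sites of neither.

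**Figure D2:**
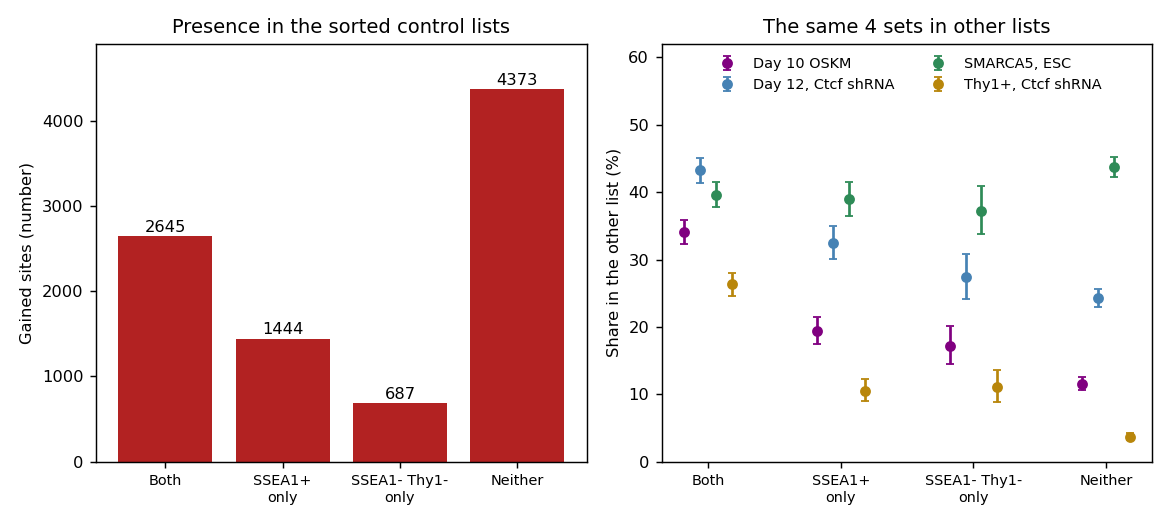
Left, number of gained sites (y axis) by presence in the sorted control lists (x axis: both, SSEA1+ only, SSEA1- Thy1- only, neither). Right, share of each set (y axis, percent) found in 4 other lists, with Wilson 95% intervals. The neither set is the largest at 4373 sites and has the lowest shares in the day 10, day 12 Ctcf shRNA and Thy1+ Ctcf shRNA lists, but the highest share with SMARCA5, 43.8%.

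Knockdown of Ctcf was compared with the control within each population, over the gained sites that its control list held. In SSEA1- Thy1- cells, 1794 of 3332 gained sites were also in the Ctcf shRNA list (53.8%, 95% interval 52.1 to 55.5), against 81.3% for sites shared from Thy1+ on and 98.3% for those shared from day 0 on. Over all 50890 peaks of that control list 82% were kept. In SSEA1+ cells 2357 of 4089 gained sites were kept (57.6%, 56.1 to 59.1), against 83.3% and 98.3% for the same classes and 82% of all 51978 peaks. In day 12 Oct4-GFP+ cells 2863 of 9149 were kept (31.3%, 30.4 to 32.3). The shares were 44.5% for sites shared from Thy1+ on, 78.1% for those shared from day 0 on and 58.6% for all day 12 control peaks. The day 12 list with Ctcf shRNA is also short, with 35803 peaks against 53043 in the control, and how far the list lengths set these shares was not tested.

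Gained sites already present in the intermediates were kept more often at day 12. The share in the day 12 Ctcf shRNA list was 43.3% (41.4 to 45.1) for sites of both intermediates, 32.5% for those of SSEA1+ but not SSEA1- Thy1- cells, 27.4% for the reverse, and 24.3% (23.0 to 25.6) for sites of neither. The other peaks shared with ESCs showed the same direction, with 68.7% of those in SSEA1+ control cells against 24.9% of the rest. For gained sites this split gave 39.4% against 24.7%. Of the 2645 sites in both control intermediates, 743 (28.1%) were in all 3 Ctcf shRNA lists of these populations and 372 (14.1%) were in none of the 3. Some gained sites were listed with Ctcf shRNA where the control list lacked them. In SSEA1+ cells these were 453 of 5060 sites, against 414 of 2324 of the other shared peaks, which is a larger part. In SSEA1- Thy1- cells they numbered 544, against 536 of the other shared peaks. That control list held 36.4% of the gained sites and 94.2% of the other shared peaks. The day 0 list with Ctcf shRNA held 44 gained sites (0.481%). The Thy1+ list with Ctcf shRNA held 1087 (11.9%), although the Thy1+ control list held none by the rule. For the 1850 day 12 control peaks absent from ESCs and from both of the rule's early lists, these shares were 1.78% and 11.7%. Of those 1087 sites, 848 (78.0%) were also in SSEA1+ control cells, against 40.2% of the remaining gained sites. The other shared peaks showed the same direction, with 97.2% against 68.1%.

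In the day 10 experiment, 1803 gained sites were listed with OSKM and 2641 with OSKM and added Ctcf. The second list held 848 sites that the first did not, and lacked 10 that the first held. These 848 added sites made up 32.1% of the gained sites listed with OSKM and Ctcf (95% interval 30.4 to 33.9). The added share was 16.9% among sites shared from Thy1+ on, 1.64% among those shared from day 0 on and 17.3% among all 52252 peaks of that list. The list with added Ctcf is longer as a whole, 52252 against 43356 peaks, and the part this plays was not tested. With the shRNA against Smarca5 on top, 2563 of the 2641 sites were kept (97.0%, 96.3 to 97.6). The share kept was 99.7% for sites shared from Thy1+ on, 99.9% for those shared from day 0 on and 98.3% for all peaks of the list. Of the 848 added sites 805 were kept (94.9%, 93.2 to 96.2), against 99.1% of the added sites shared from Thy1+ on.

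In ESCs without Smarca5, 8585 of the 9149 gained sites had a CTCF peak (93.8%, 95% interval 93.3 to 94.3). The share was 98.0% for sites shared from Thy1+ on, 99.7% for those shared from day 0 on and 97.1% for all wild-type ESC peaks. The 564 gained sites absent from the knockout list were seldom found on day 10: 22 of them (3.90%) were in the OSKM list, against 20.7% of those kept. The other peaks shared with ESCs showed the same direction, with 27.0% of those absent from the knockout list against 83.6% of those kept. The knockout list is the longest of all, with 89567 peaks against 83173 in wild type.

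A SMARCA5 peak overlapped 3780 gained sites (41.3%, 95% interval 40.3 to 42.3). SMARCA5 peaks were at 49.6% of the sites shared from Thy1+ on, at 66.2% of those shared from day 0 on and at 48.6% of all wild-type ESC peaks. Gained sites with SMARCA5 were in the day 12 Ctcf shRNA list more often than those without (36.1% against 27.9%) and in the day 10 OSKM list more often (24.8% against 16.1%). The other peaks shared with ESCs showed the same direction, with 71.5% against 58.2% and 89.7% against 73.0%. In the knockout ESCs they were kept at 95.5% (94.8 to 96.1), against 92.7% (92.0 to 93.3) for those without SMARCA5, and the other shared peaks at 99.4% against 98.6%. Of the 564 sites that the knockout list lacked, 171 (30.3%, 26.7 to 34.2) carried SMARCA5, against 42.0% of those it kept. For the other shared peaks these values were 38.4% and 60.5%.

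The gained sites lay somewhat farther from gene starts. Their median distance to the nearest annotated start was 20.7 kb, against 18.7 kb for sites shared from Thy1+ on and 18.4 kb for those shared from day 0 on. Within 1 kb of a start lay 424 gained sites (4.63%, 95% interval 4.22 to 5.08), against 8.71% and 7.63%. Inside a protein-coding gene lay 50.9%, against 56.7% and 51.6%. The sites near starts carried SMARCA5 at 67.5% (62.9 to 71.7), while gained sites more than 100 kb from a start did so at 30.6% (28.1 to 33.2). For the other peaks shared with ESCs, these values were 84.3% and 46.2%. SSEA1+ control cells had 27.6% (23.6 to 32.0) of the gained sites within 1 kb of a start and 48.9% (46.2 to 51.7) of those beyond 100 kb, against 82.2% and 95.9% for the other shared peaks. For day 10 OSKM, day 12 Ctcf shRNA and knockout ESCs, the interval of gained sites near starts overlapped that of at least 1 farther band. The 142 gained sites that covered at least 200 bases of a promoter window carried SMARCA5 at 76.1% (68.4 to 82.3), and their share on day 10 was 24.6% with OSKM and 44.4% with added Ctcf.

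Genes near the sites were taken as protein-coding genes whose span lies within 10 kb of a site. Of the gained sites 6160 were near such a gene, and 5635 of 21887 genes (25.7%) had at least 1. Among the 16269 genes with any day 12 control peak within 10 kb, the share was 34.6%. The genes of 9 lists were then followed, each read against both shares and against the 17.2% of day 12 control peaks that are gained sites. A day 12 control peak lay near 28 of 30 core factors, all 15 chromatin regulators, 17 of 20 epithelial genes and 26 of 30 fibroblast genes. The core pluripotency factors had a gained site at 15 of 30 genes, and 21 of the 66 day 12 control peaks near them were gained (31.8%, 95% interval 21.8 to 43.8). The chromatin regulators of pluripotent cells had one at 10 of 15 genes, with 24 of 70 peaks gained (34.3%, 24.2 to 46.0). Epithelial genes had one at 8 of 20, with 17 of 59 peaks gained (28.8%, 18.8 to 41.4). Fibroblast and mesenchymal genes had one at 4 of 30, with 4 of 65 peaks gained (6.15%, 2.42 to 14.8). The intervals of the first 3 lists lie above 17.2% and that of the fibroblast list lies below it. Genes differ in length and in number of peaks, and the lists were drawn up with earlier results of these data known, so these counts describe the lists and are not independent support.

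For the other 5 lists, the intervals of the shares of peaks include 17.2%. Genes for signalling of the naive state had a gained site at 8 of 15, with 9 of 46 peaks gained (19.6%, 10.7 to 33.2), trophoblast and primitive endoderm genes at 6 of 16, with 7 of 42 (16.7%), and haematopoietic genes at 5 of 16, with 5 of 26 (19.2%). Genes for CTCF, cohesin and ISWI remodellers had one at 10 of 20, with 14 of 74 peaks gained (18.9%). Of the 16 neural genes, Olig2, a factor of oligodendrocyte and motor neuron precursors, was the one with a gained site, and 1 of 23 peaks there was gained (4.35%, 0.772 to 21.0).

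**Figure D3:**
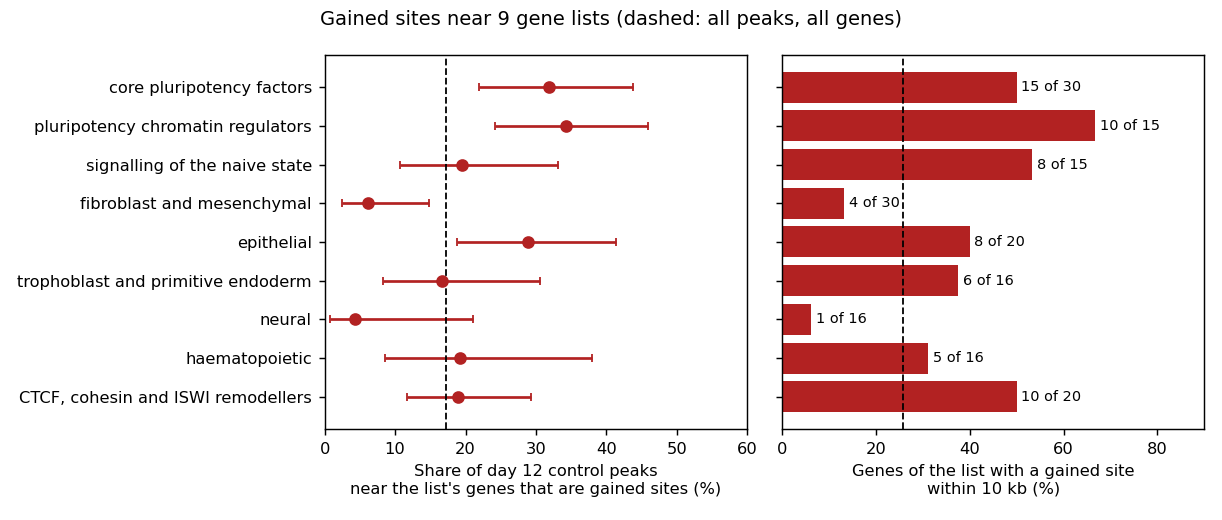
Left, share of the day 12 control peaks within 10 kb of each list's genes that are gained sites (x axis, percent), with Wilson 95% intervals; right, percent of each list's genes with a gained site within 10 kb, with counts. Dashed lines are all day 12 control peaks (17.2%) and all protein-coding genes (25.7%). Chromatin regulators and core factors have the highest peak shares, 34.3% and 31.8%, and neural and fibroblast genes the lowest, 4.35% and 6.15%.

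Sites near the core factors differed in the lists that held them. Nanog, the homeodomain factor that stabilises pluripotency, had 2 gained sites inside the gene. The first, chr6:122709010-122709409, was listed in both control intermediates, in the day 10 lists with added Ctcf and in both ESC genotypes, but not in day 12 cells with Ctcf shRNA. The second, 6.14 kb downstream of the start, was listed in the 2 ESC genotypes and, among reprogramming cells, in the day 12 control. Esrrb, an orphan nuclear receptor of naive cells, had 3 sites inside the gene. Of these, the site at chr12:86484333-86484732 was in SSEA1+ cells, the site at chr12:86444529-86444928 was missing from the knockout ESCs and kept in day 12 cells with Ctcf shRNA, and the site at chr12:86516103-86516502 was in no list of reprogramming cells other than the day 12 control. Klf5, a Krüppel-like factor, had 1 site, in both intermediates, all 3 day 10 lists, both ESC genotypes and the SMARCA5 list. Nr0b1 (Dax1), a partner of Oct4 on the X chromosome, had 1 site 1.04 kb downstream of its start, in both intermediates and in the day 10 lists with added Ctcf. Tfcp2l1, a factor downstream of LIF signalling, had 1 site 4.89 kb upstream, in SSEA1+ cells and with SMARCA5. The sites of Tbx3 and of Sall4, which encode a T-box factor and a zinc-finger factor, were in no control intermediate.

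The other core genes with a gained site, named to complete the list, were Zfp42 (Rex1), Dppa2, Dppa4, Utf1, Tdgf1, Fgf4 and Lefty2. The neighbours Dppa2 and Dppa4 had 2 sites each, and 1 of the 4, at Dppa4, was listed in SSEA1+ control cells. The Utf1 site, 0.512 kb upstream of the start, was in SSEA1+ cells with either shRNA but not in day 12 cells with Ctcf shRNA. In all, 7 of the 21 sites near core factors were in SSEA1+ control cells, 2 in day 10 OSKM cells, 5 in day 10 cells with added Ctcf, 4 in day 12 cells with Ctcf shRNA, 20 in knockout ESCs and 9 in the SMARCA5 list. The day 12 Ctcf shRNA share was 19.0% (7.67 to 40.0), and the interval holds the 31.3% of all gained sites. The shares in knockout ESCs (95.2%, 77.3 to 99.2) and with SMARCA5 (42.9%, 24.5 to 63.5) have intervals that hold the 93.8% and 41.3% of all gained sites.

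Of 24 sites near the chromatin regulators, 2 were in SSEA1- Thy1- cells (8.33%, 2.32 to 25.8), against 36.4% of all gained sites, and 7 were in SSEA1+ cells (29.2%, 14.9 to 49.2), an interval that includes the 44.7% of all gained sites. The de novo methyltransferase Dnmt3b had 3 sites, all inside the gene, of which 1 was in SSEA1+ cells. Its cofactor Dnmt3l had 2, both in SSEA1+ cells. Of the methylcytosine dioxygenases, Tet1 had 3 sites and Tet2 had 2, and 4 of these 5 were listed in day 12 cells with Ctcf shRNA. Smarca4 had 4 sites, and the one at chr9:21621665-21622064 was absent from the knockout ESCs although SMARCA5 was listed there. Ezh2 had 1 site and Eed 2, both genes of the Polycomb repressive complex that methylates histone H3 lysine 27. The Eed site at chr7:89957244-89957643 was in all 3 day 10 lists. Kdm4c, a histone demethylase, had 1 site, in day 12 control cells and the 2 ESC genotypes. Mybl2 and Trim28, outside the first 8 of the list and named to complete it, had 4 and 2. Over the 24 sites, 9 were kept in day 12 cells with Ctcf shRNA (37.5%, 21.2 to 57.3) and 21 in knockout ESCs (87.5%, 69.0 to 95.7). The SMARCA5 list held 14 (58.3%, 38.8 to 75.5). These intervals include the 31.3%, 93.8% and 41.3% of all gained sites.

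**Figure D4:**
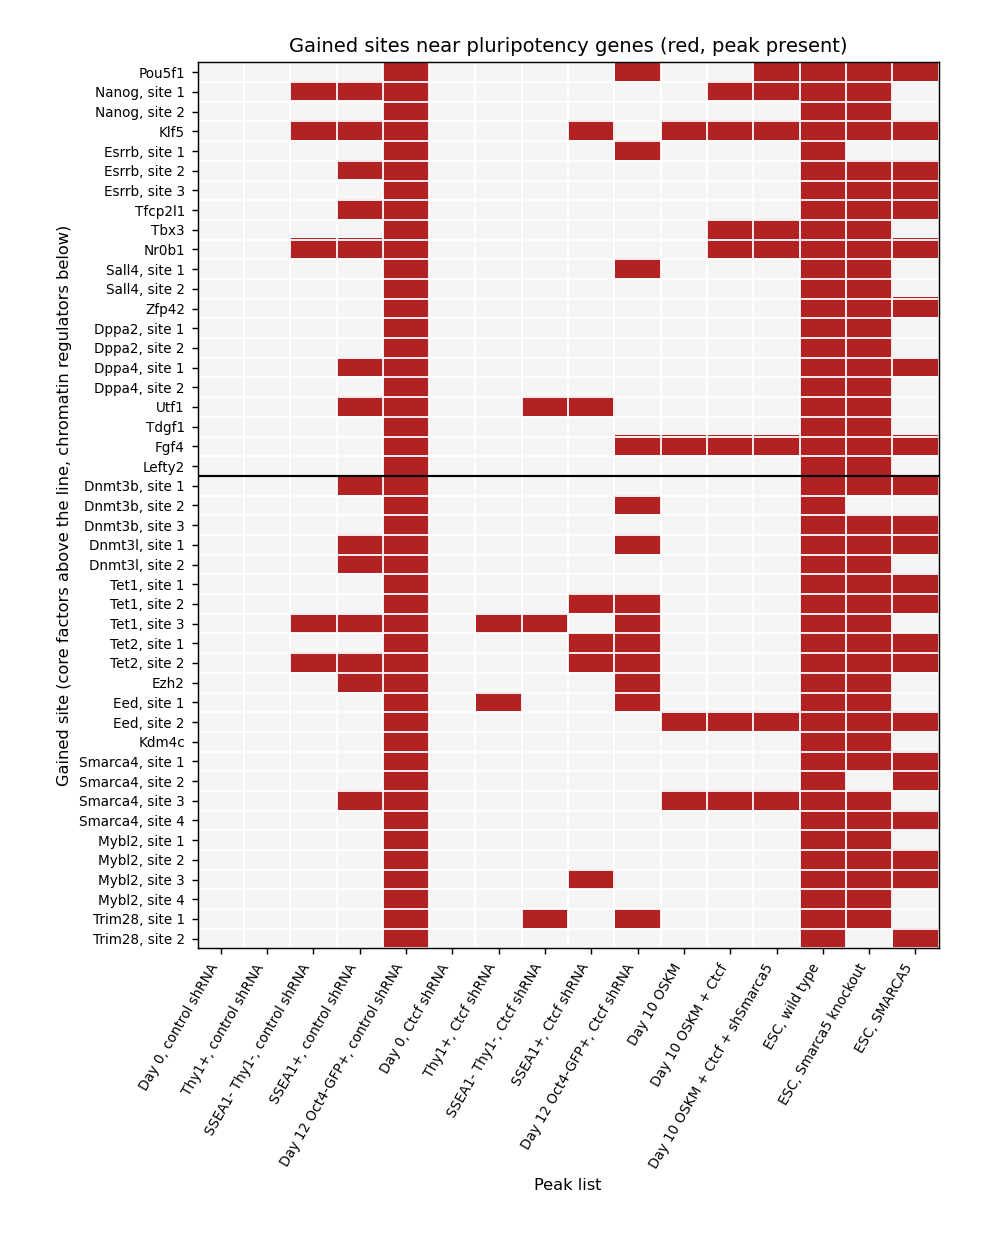
Presence (red) or absence (pale) of a peak in each of the 16 lists (x axis) at the 45 gained sites within 10 kb of core pluripotency factors (21 sites, above the line) and pluripotency chromatin regulators (24 sites, below). The day 12 control and wild-type ESC columns are full and the day 0 and Thy1+ control columns empty by the rule.

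Of the 17 gained sites near epithelial genes, 9 were in SSEA1- Thy1- cells (52.9%, 31.0 to 73.8), 10 in SSEA1+ cells (58.8%, 36.0 to 78.4), 4 in day 10 OSKM cells, 10 with added Ctcf, 4 in day 12 cells with Ctcf shRNA, 15 in knockout ESCs and 11 with SMARCA5. Cdh1, which encodes E-cadherin, had 4 sites inside the gene, all with SMARCA5 and none kept in day 12 cells with Ctcf shRNA, though 3 of the 4 were in SSEA1+ cells with that shRNA. The tight junction gene Ocln had 3 sites, and Cldn6 and Crb3 had 1 each. Dsp, the desmosome protein desmoplakin, had 2. Grhl2, a master factor of epithelia, had 1 site that was listed in 9 of the 11 CTCF lists not used by the rule, missing from the day 0 and Thy1+ lists with Ctcf shRNA. The intervals for SSEA1- Thy1- and SSEA1+ cells include the 36.4% and 44.7% of all gained sites. With added Ctcf the share was 58.8% (36.0 to 78.4), against 28.9% of all gained sites. In day 12 cells with Ctcf shRNA it was 23.5% (9.56 to 47.3) against 31.3%. In knockout ESCs it was 88.2% (65.7 to 96.7) against 93.8%, and with SMARCA5 64.7% (41.3 to 82.7) against 41.3%.

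Of the signalling genes, the sites at Lifr (the LIF receptor), Bmp4 and Id3 were absent from the SMARCA5 list, while those at Stat3, Spry4, Axin2 and both sites of Tcf7l1, a repressor in the Wnt pathway, were in it. The Spry2 site had no peak in knockout ESCs and was listed at day 0 and in Thy1+ cells with Ctcf shRNA. The 4 fibroblast genes with a gained site were Thy1 itself, the transcription factors Snai1 and Fosl1, and the receptor gene Pdgfrb. Each of these 4 sites was kept in knockout ESCs, and 3 of the 4 were in the SMARCA5 list, against 93.8% and 41.3% of all gained sites. Trophoblast and primitive endoderm genes with a site were Cdx2, Eomes, Elf5, Tead4, Gata4 and Col4a1. Sites at Cdx2 and Eomes, the caudal and T-box factors of trophoblast, were in all 3 day 10 lists and in SSEA1+ control cells. Haematopoietic genes with a site included Ptprc, Spi1, Csf1r and Kit. Of the loop machinery, the cohesin genes Rad21, Smc1a, Smc3 and Stag1 and its loader Nipbl and release factor Wapl had gained sites, as had Pds5b and Esco2, which regulate cohesin; Yy1 and Bptf, outside the first 8, complete the list. All 14 sites there were kept in knockout ESCs, with an interval of 78.5 to 100 that includes the 93.8% of all gained sites. Over all 9 lists, 8 of 102 gained sites were absent from knockout ESCs, among them sites at Esrrb, Dnmt3b, Smarca4, Trim28, Spry2, Ocln and Tead4. The share kept over these lists, 92.2% (85.3 to 96.0), is near the 93.8% of all gained sites.

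Gained sites were spread over the genome, with local groups. Their share of day 12 control peaks ran from 14.7% on chromosome 14 to 19.8% on chromosome 5. Of 100 kb windows with any gained site, 4794 had 1, and 11 had 6 or more. The window with the most was chr18:37400001-37500000, with 9 gained of 18 day 12 control peaks, across the protocadherin beta genes Pcdhb9 to Pcdhb19, in which CTCF is known to take part in promoter choice in neurons. Of these 9 sites, 5 were in day 10 OSKM cells, 4 in day 12 cells with Ctcf shRNA, 9 in knockout ESCs and 6 with SMARCA5. Next were 2 adjoining windows at Mtus2, a microtubule-associated protein gene, with 7 of 15 and 7 of 13 peaks gained. The next 2 windows, with 6 each and first among 8 such windows in order of chromosome and position, held Dnmt3b with Commd7 (6 of 10 peaks) and Mybl2 with Sgk2, Ift52 and Gtsf1l (6 of 8). Of the 6 sites around Mybl2, 1 was in SSEA1+ cells, none in day 12 cells with Ctcf shRNA, 6 in knockout ESCs and 3 with SMARCA5. Among the tied windows, the one with Nanog and Slc2a3 (6 of 11 peaks) and the one with Foxd3 (6 of 9) are named after their values were seen. None of the 6 Nanog window sites was in day 10 OSKM cells, 3 were with added Ctcf, none was in day 12 cells with Ctcf shRNA, and 6 were in knockout ESCs.

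The 15 protein-coding genes with the most gained sites were long, with a median span of 868 kb against 17.2 kb for all protein-coding genes, and 8 of them were on chromosome 5. Mtus2 had 17 gained of 36 day 12 control peaks (47.2%), of which 11 were kept in day 12 cells with Ctcf shRNA. The predicted genes Gm37013, Gm38666 and Gm38667, 3 overlapping models on chromosome 18, had the same 15 sites. These were among 69, 67 and 66 day 12 control peaks (21.7%, 22.4% and 22.7%), against 17.2% of all such peaks. The spans of these models include the protocadherin beta window named above, so both describe 1 region. Dpp6 and Tmem132d, which encode membrane proteins known from the nervous system, had 13 gained of 27 peaks each. None of the 13 Tmem132d sites was in either control intermediate or in day 10 OSKM cells, while 6 were in day 12 cells with Ctcf shRNA and all 13 in knockout ESCs. At Dpp6, 7 of 13 were in SSEA1+ cells and 6 in day 10 OSKM cells. Tmem132b had 11 gained of 21 peaks, the catenin gene Ctnna3 had 11 of 30, Caln1 had 10 of 23, Cdh13 (T-cadherin) had 10 of 33 and Tshz2 had 9 of 20. Macf1, Ccdc60, Auts2 and Sdk1 had 8 each, and at Ccdc60, with a span of 163 kb, these were 8 of 13 peaks (61.5%). The longest run of consecutive day 12 control peaks that were all gained had 9 sites, 8 of them with SMARCA5, across chr2:171496624-172097481, which contains Cbln4. Another run packed 8 into 130 kb at chr5:116764490-116894959, between Srrm4 and Suds3. Both runs were picked for their length after it was seen.

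**Figure D5:**
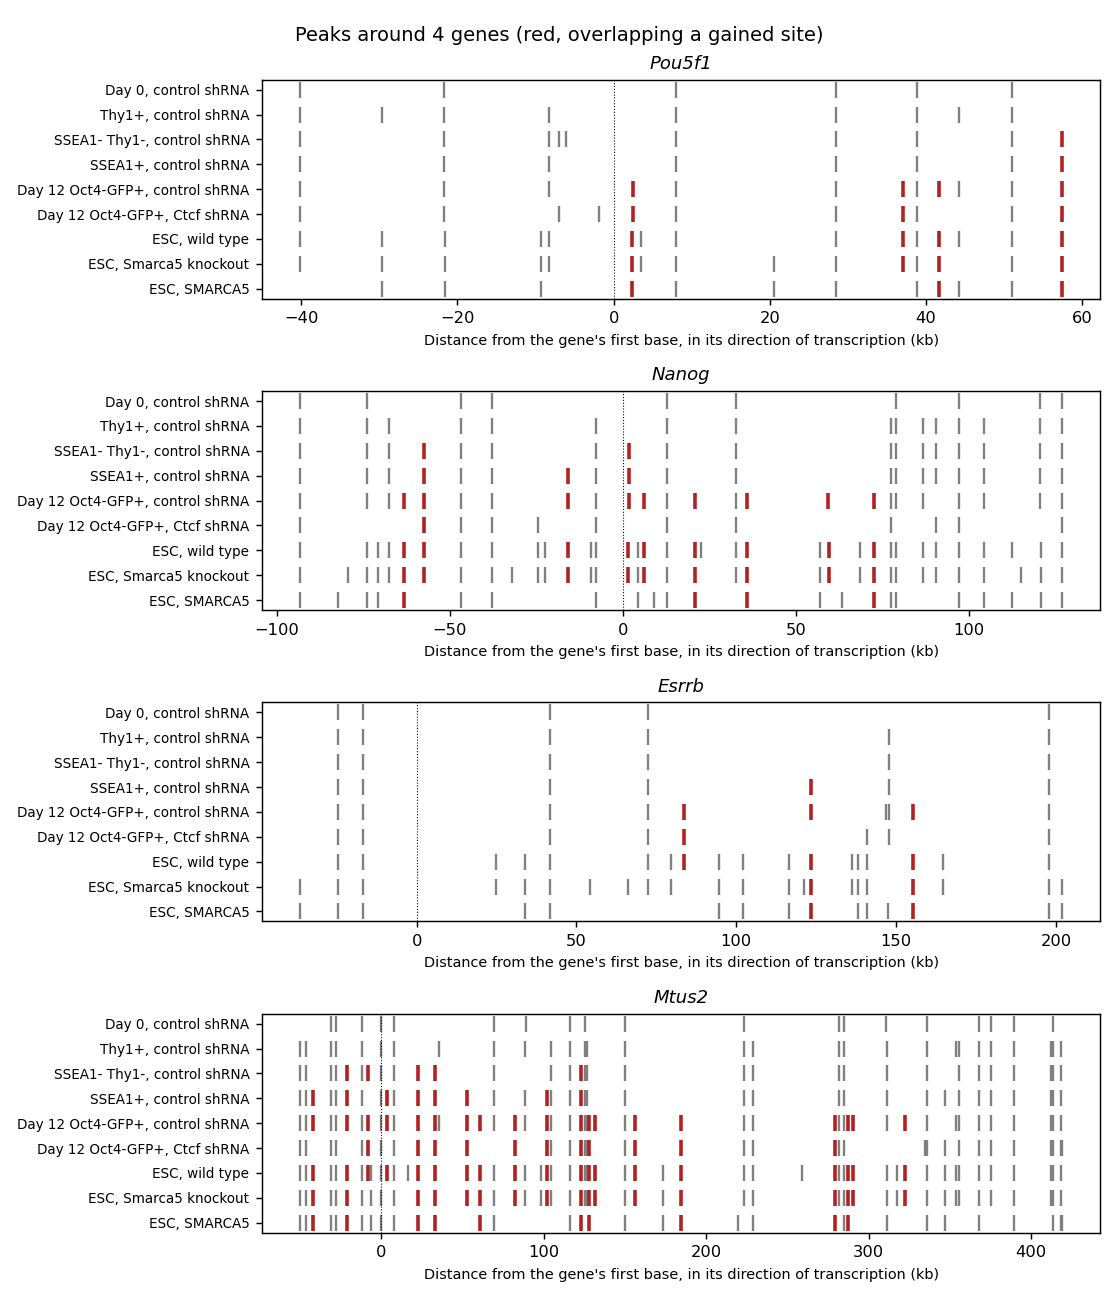
Peaks in 9 lists (rows) around Pou5f1, Nanog, Esrrb and Mtus2, plotted by distance from the gene's first base in its direction of transcription (x axis, kb). Red marks overlap a gained site and grey marks do not. At Nanog 9 of the 24 day 12 control peaks plotted are gained sites and 1 of these 9 is red in the day 12 Ctcf shRNA row; at Mtus2 19 of 48 are gained and 11 of these are red in that row.

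The rule's limits were looked at once. Gained sites overlapped their ESC peak by a median of 392 of 400 bp and by at least 4 bp, with 95.6% overlapping by 300 bp or more. The nearest day 0 peak lay a median of 20.1 kb away and the nearest Thy1+ peak 10.2 kb away. At the edge, 435 sites (4.75%) had a day 0 or Thy1+ peak within 1 kb, the closest adjoining at a gap of 0 bp. Just outside the rule were 282 day 12 control peaks with no overlap but an ESC peak within 1 kb, and 47 that overlapped a day 0 or Thy1+ peak by less than 200 bp.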

How the data were processed

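The deposited data are 16 lists of peaks in mm10 (GRCm38). Per the submitters' processing notes, tools included Bowtie2, MACS2, Picard, bedtools, HOMER, deepTools, SAMtools, Trim Galore and FastQC; versions, thresholds and pooling of samples were not given in the sources used here. The 28 input samples were not analysed here. All intervals are 400 bp wide and the score the authors deposited is 0 for every peak, so neither strength nor sequencing depth is known, and the number of peaks (23600 to 89567) is the sole measure of a list's yield. The lists of sorted cells have common start positions, as a set apart from day 0, day 10 and ESC lists, which can raise overlaps among them; how positions were joined is not stated.

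Overlaps of 1 bp or more were counted in Python 3 code (NumPy, pandas), checked on simulated lists. Shares have Wilson 95% intervals from SciPy. Gene spans and promoter windows came from RefSeq tables of GRCm38.p6, which give no exons. Named were the 15 genes with the most sites, up to 8 genes per list, and 5 windows of 100 kb; some genes of the lists are counted but not reported here by name. Members and gene lists were chosen with earlier results of these data known. Alternatives were a reciprocal overlap of 50%, a gap of 1 kb, other lists for absence, and gene distances of 2.5 and 50 kb.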

Additional observations from a re-analysis of the deposited data

How the results depend on the processing

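The number of gained sites depended on the Thy1+ list: absence from the day 0 list alone gave 23290 sites, while the other 5 definitions stayed within 1.5 times of 9149. With absence from the day 0 list alone, an alternative chosen after seeing the data that leaves out the list with contradictory labels, the shares kept with Ctcf shRNA were 75.4% in SSEA1- Thy1-, 76.8% in SSEA1+ and 39.3% in day 12 cells. The share was then 65.9% in SSEA1- Thy1- and 69.5% in SSEA1+ control cells, 43.8% in day 10 OSKM cells, 54.8% with added Ctcf, 96.4% in knockout ESCs and 46.3% with SMARCA5, and epithelial and fibroblast genes with a site numbered 14 and 16. Requiring absence from the day 0 and Thy1+ lists of both shRNAs gave shares kept of 47.2%, 52.3% and 29.5% in the same 3 populations. Within 50 kb, 25 core factors and 11 fibroblast genes had a site, and within 2.5 kb 5 epithelial genes did. The 25.7% of all genes and the 34.6% of genes with a day 12 control peak hold for 10 kb and the main rule alone. The share of all genes at other distances or definitions is not given, so these gene counts have no background. Under all 7 definitions, gained sites had lower shares than the other shared peaks in SSEA1+, day 10 OSKM, day 12 Ctcf shRNA and SMARCA5 lists; in the knockout this held for 6 of 7, the exception being the definition that requires a knockout peak. A reciprocal overlap of 50% moved no share by more than its interval. No paired analysis was possible because each group has 1 list and no test was run, and leaving out a replicate could not be run for the same reason. Lists without scores hide partial loss of binding, and a weak site can be missed in a short list.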
